A study of Homo sapiens with 9 samples.

Results

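Exit from pluripotency in both lineages is described here as the set of genes that moved the same way in neuroectoderm and in mesendoderm in H9 cells, a line of human embryonic stem cells, after 5 days of differentiation. All 9 libraries of the series enter. A gene was taken as shared where the change of the 6 day 5 libraries against the 3 undifferentiated libraries, the lineages weighted equally, and the change of each lineage on its own were of the same sign, each with an adjusted p under 0.05 (limma, Benjamini-Hochberg). Of 14473 genes tested among 21417 gene symbols, 2132 were shared, 899 higher and 1233 lower at day 5.

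The undifferentiated cells (hESC, day 0) were kept on Matrigel in mTeSR1. Neuroectoderm (day 5) was made with NOGGIN at 200 nM, a secreted BMP antagonist, and SB431542 at 10 µM, an inhibitor of the activin and Nodal type I receptors. Mesendoderm (day 5) was made with BMP4 at 5 ng/ml in mTeSR1. Each group holds 3 libraries of total RNA depleted of ribosomal RNA. Both lineages come from the same unmodified line, so every comparison rests on 1 cell line, and both share the 5 days since the start of differentiation: the agents and the time apart from the stem cell state cannot be told apart. Whether replicate libraries stem from different cultures is not in the labels, and the p-values therefore reflect only the spread among these libraries, which may be technical. The 2 lineage comparisons also share the 3 hESC libraries.

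Human embryonic stem cells are held in the primed pluripotent state by a transcription factor network that includes NANOG and PRDM14, fed by FGF, activin and Nodal signals. On differentiation much of that network is shut down, to a degree that can differ by factor and by germ layer. The BMP and WNT pathways are among the signals that then pattern the ectoderm and mesendoderm. WNT proteins are carried to the cell surface by the transporter WLS, bind Frizzled and co-receptors, and act through beta-catenin with LEF and TCF factors on targets, several of which are feedback inhibitors of the pathway.

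The values are RPKM, reads per kilobase of transcript and scaled to the reads of the library, and changes are differences of log2(RPKM + 1), a scale that understates the change of low genes. The denominators recovered from the value of 1 read were 37.1 to 70.6 M reads per library, so that 3 reads on a transcript of 1 kb came to 0.0425 to 0.0809 RPKM. hESC replicate 2, neuroectoderm replicate 1 and mesendoderm replicate 1 stood apart from the other libraries of their groups. Across 13872 genes, their deviation from the group mean had a Spearman correlation with transcript GC content of -0.619, -0.563 and -0.290, against 0.195 to 0.587 in the other 6 libraries. Each mean is over 3 libraries, so a negative value in 1 library in part fixes positive ones in the others of its group. The difference was smallest in mesendoderm, whose libraries correlated at 0.981 to 0.991 with each other. Leaving out the 3 libraries that stood apart gave 1462 genes higher and 1723 lower in both lineages, and without neuroectoderm replicate 1 alone 1404 genes were higher. With small RNA genes left out and the libraries rescaled to the rest, the median change of all genes shifted by -0.11 and the split became 488 higher and 1377 lower.

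The shared genes were 6.21% (higher) and 8.52% (lower) of the genes tested. Each lineage on its own differed from hESC in more genes, 21.9% higher and 22.3% lower in neuroectoderm (44.2% in either direction) and 17.0% higher and 18.1% lower in mesendoderm (35.1%). The median change, both lineages equally weighted, was 0.85 among the shared genes that rose and -0.87 among those that fell, values that the selection fixes, against 0.00 over all genes tested. A change of at least 2-fold in each lineage was seen in 202 genes that rose (1.40% of those tested) and in 279 that fell (1.93%). All 6 day 5 libraries lay on the called side of the 3 hESC libraries in 887 of the 899 and 1217 of the 1233. Over all genes tested 9.65% lay wholly above and 12.1% wholly below, but the shared genes were called from these same values, so the separation is a description that the selection largely fixes. At the edge of the rule, GTF2H5 was just inside (largest of the 3 adjusted p 0.0499, changes of 0.38 in neuroectoderm and 0.27 in mesendoderm) and LETMD1 just outside (0.0503, 0.35 and 0.44). Among the falls, CAD was just inside (0.04998, -0.42 and -0.54) and PYCR1 just outside (0.0501, -0.66 and -0.78).

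**Figure D1:**
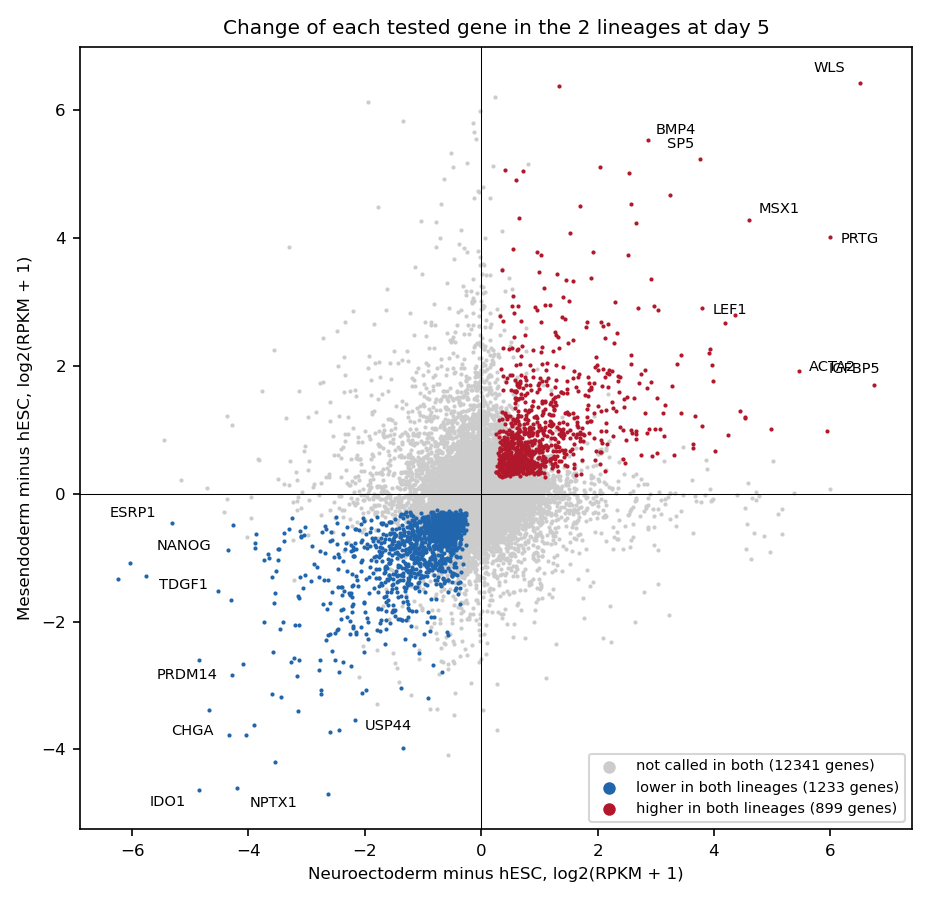
Each point is 1 of 14473 genes, placed by its change from hESC to neuroectoderm (x axis) and to mesendoderm (y axis), both in log2(RPKM + 1). The 899 genes called higher in both lineages are red and the 1233 called lower are blue. WLS lies near the diagonal at the top right and IDO1 and NPTX1 near it at the bottom left, whereas ESRP1 and NANOG fell far more in neuroectoderm.

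A shared direction did not mean a shared size. The lineages differed from each other (adjusted p under 0.05) in 421 of the 899 genes that rose (46.8%) and in 530 of the 1233 that fell (43.0%), against 48.1% of all genes tested. Among the falls that differed, 394 were deeper in neuroectoderm and 136 deeper in mesendoderm. Among the rises that differed, 222 were larger in neuroectoderm and 199 in mesendoderm. The lineages were not called different in 478 rises and 703 falls, which by itself does not show an equal size. Over all shared genes, called different or not, the 95% interval of the difference was counted. It lay within 1 log2 unit of no difference for 627 of the 899 rises and 959 of the 1233 falls.

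The deepest shared fall was that of IDO1, the enzyme that starts the breakdown of tryptophan to kynurenine. It stood at 29.6, 30.2 and 33.2 RPKM in the hESC libraries, at 0.14, 0.13 and 0.07 in neuroectoderm and at 0.32, 0.31 and 0.25 in mesendoderm. Every day 5 library was under 1 RPKM and no group overlapped with hESC. The change was -4.84 ± 0.08 (log2, SE) in neuroectoderm and -4.63 ± 0.08 in mesendoderm (adjusted p 7.2e-09 and 1.1e-08), and the lineages differed by -0.22 (95% interval -0.40 to -0.03, adjusted p 0.057). In bulk RNA, fewer cells that express a gene and less RNA per cell cannot be told apart. IDO1 was the only 1 of 12 tested genes of tryptophan and kynurenine metabolism to fall in both lineages, and 0 rose. That share of falls is near the 8.52% of all genes tested, of which 6.21% rose. Without neuroectoderm replicate 1 the falls numbered 2, and without hESC replicate 2 there was 1 rise.

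NPTX1, a secreted pentraxin that gathers AMPA-type glutamate receptors, fell almost as far. Its values were 27.2, 22.1 and 26.4 RPKM in hESC, 0.43, 0.30 and 0.57 in neuroectoderm and 0.10, 0.09 and 0.04 in mesendoderm. The mesendoderm libraries were the lowest and did not overlap with the neuroectoderm libraries. The changes were -4.19 ± 0.11 and -4.60 ± 0.11, and here the lineages differed, by 0.41 (95% interval 0.16 to 0.66, adjusted p 0.013). Of 6 tested pentraxin and AMPA receptor genes 3 fell in both lineages and 0 rose, beside 8.52% and 6.21% of all genes tested. The falls were NPTX1, its membrane-bound relative NPTXR (-0.59 ± 0.13 and -0.74 ± 0.13) and the receptor subunit GRIA4 (-0.97 ± 0.09 and -1.41 ± 0.09).

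The 15 named genes that fell most, ranked by the smaller of the 2 lineage changes, ran from IDO1 to TERF1, and in each the smaller change was at least as deep as -2.63. CHGA, chromogranin A of secretory granules, went from 26.6, 18.9 and 29.7 RPKM to 0.16, 0.35 and 0.33 in neuroectoderm and 1.30, 0.62 and 0.74 in mesendoderm. LECT1, which encodes chondromodulin, went from 46.9, 42.6 and 48.2 to 0.78, 0.75 and 0.99 and to 2.56, 4.91 and 3.31. In both genes the neuroectoderm libraries were the lowest, and all 6 day 5 libraries were below hESC. CUZD1 fell by 4.05 and 3.77 on the log2 scale. The read-through transcript FAM24B-CUZD1 shares exons with it and its fall is uncertain for that reason, as is that of SNAR-G2, a small RNA gene with near-identical copies.

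Others on that list have roles outside the pluripotency network. FGFBP3, which binds FGFs, fell from 42.6 ± 6.82 RPKM (SD, n = 3) to 5.57 ± 1.86 in neuroectoderm and 4.33 ± 1.83 in mesendoderm. PRICKLE1, a component of planar cell polarity, fell from 23.0 ± 2.51 to 1.67 ± 0.155 and 2.34 ± 0.459. LRAT, the enzyme that esterifies retinol for storage, fell from 9.23 ± 0.387 to 0.477 ± 0.0643 and 0.567 ± 0.479. The lineages were not called different in any of these 3, and for LRAT the difference was -0.04 (95% interval -0.46 to 0.38). LINC00599, a long noncoding RNA, and D21S2088E changed by -3.59 and -3.13 and by -3.44 and -3.19 in neuroectoderm and mesendoderm. The call of each of the 15 held in all of the 19 alternative settings in which the gene was tested.

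**Figure D2:**
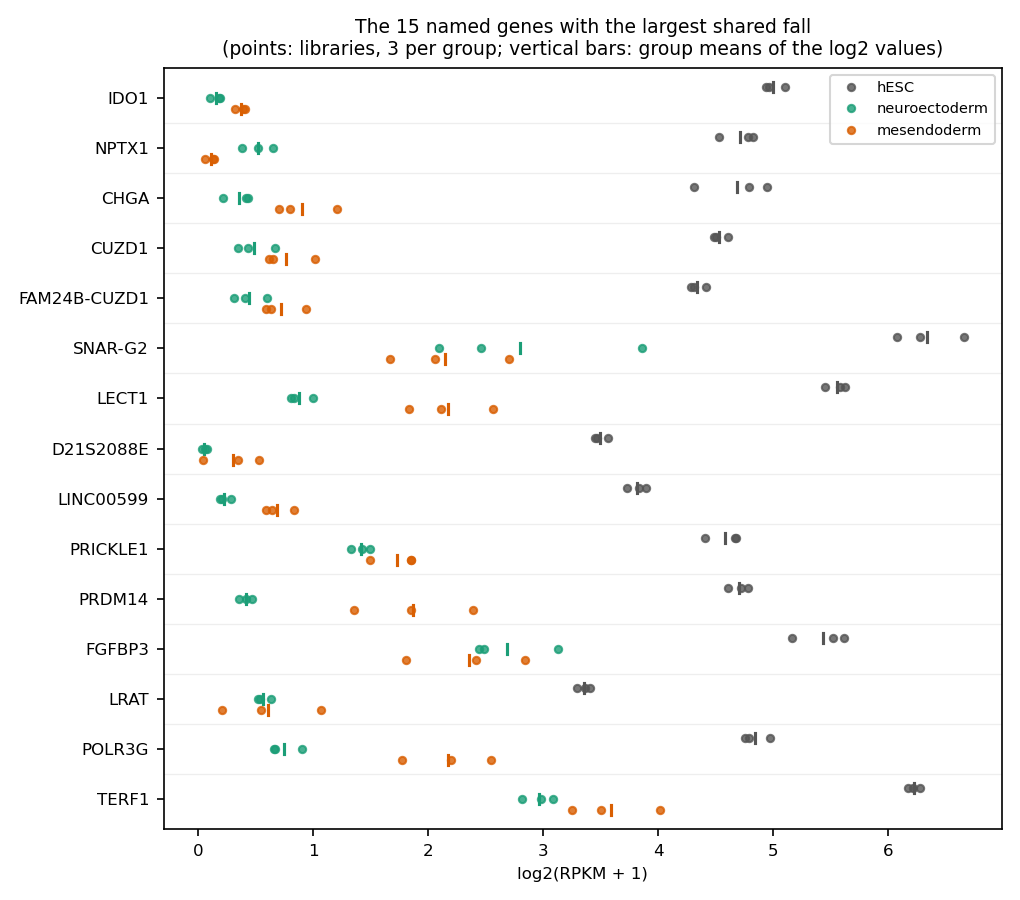
The 15 named genes with the deepest shared fall, 1 row per gene. Points are libraries (3 per group) in log2(RPKM + 1) and the short bars are the group means. In every row the 3 grey hESC points lie to the right of all 6 day 5 points, and in LECT1, PRDM14 and POLR3G the green neuroectoderm points lie to the left of the orange mesendoderm points.

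Among regulators of pluripotency, 13 of the 39 tested fell in both lineages and 0 rose, beside the 8.52% and 6.21% of all genes tested. The median change over the 39 was -0.80, with -1.39 in neuroectoderm and -0.68 in mesendoderm, against 0.00 over all genes. The falls numbered 16 without the 3 libraries that stood apart and 15 after rescaling, and rises stayed at 0 in both. With 1 library left out the falls ranged from 11 to 16. They numbered 11 without hESC replicate 1 or 3 or mesendoderm replicate 1 or 3. PRDM14, a repressor of differentiation genes, stood at 26.5, 23.3 and 25.4 RPKM in hESC, at 0.33, 0.28 and 0.38 in neuroectoderm and at 1.56, 4.23 and 2.61 in mesendoderm. POLR3G, a subunit of RNA polymerase III that marks pluripotent cells, stood at 26.0, 30.4 and 26.6, then 0.87, 0.58 and 0.59, then 2.41, 4.83 and 3.57. Both were deeply reduced in every day 5 library, and the neuroectoderm libraries were the lower ones, by -1.45 (95% interval -1.95 to -0.96) and -1.42 (-1.84 to -1.01).

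TERF1, a telomere-binding protein of the shelterin complex, kept more of its level: 76.5, 73.2 and 70.9 RPKM in hESC, 7.48, 6.05 and 6.86 in neuroectoderm, and 8.50, 15.1 and 10.3 in mesendoderm. USP44, a deubiquitinase that acts on histone H2B, was the reverse in its order, with 37.8, 54.8 and 42.2 in hESC, 11.1, 7.46 and 8.90 in neuroectoderm and 1.96, 4.78 and 2.47 in mesendoderm. It lay lower in mesendoderm than in neuroectoderm by 1.36 (95% interval 0.78 to 1.95, adjusted p 0.0021). FOXD3 and HESX1, a forkhead and a homeobox factor named after their values were seen, fell to about the same level in both lineages. FOXD3 changed by -1.77 ± 0.29 and -1.78 ± 0.29 and HESX1 by -1.27 ± 0.13 and -1.40 ± 0.13, with 95% intervals of the lineage difference of -0.65 to 0.66 and -0.15 to 0.41.

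For several regulators the fall was near total in neuroectoderm and partial in mesendoderm. TDGF1, the Nodal co-receptor also called Cripto, went from 57.0, 51.8 and 60.2 RPKM to 0.11, 0.05 and 0.02 in neuroectoderm but to 14.1, 34.2 and 22.9 in mesendoderm. NANOG, likewise named after its values were seen, went from 22.2, 20.7 and 23.2 to 0.18, 0.08 and 0.12 and to 7.68, 18.4 and 10.6. In both genes mesendoderm replicate 2 was the highest day 5 library, yet all 6 lay below hESC. The change of NANOG in mesendoderm was -0.88 ± 0.24 (adjusted p 0.021), and its shared call was lost without hESC replicate 1 (adjusted p 0.0597), hESC replicate 3 (0.0673), mesendoderm replicate 1 (0.0547) or mesendoderm replicate 3 (0.0747). L1TD1, an RNA-binding protein, changed by -6.03 ± 0.19 and -1.08 ± 0.19, and the zinc finger factor ZSCAN10 by -4.30 ± 0.22 and -1.67 ± 0.22; both were named after their values were seen. DPPA4, a chromatin-associated protein named in the same way, kept 22.5 ± 0.780 RPKM in neuroectoderm and 45.6 ± 11.6 in mesendoderm of its 124 ± 3.09 in hESC.

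Of 6 tested long noncoding RNAs of stem cells 3 fell in both lineages and 0 rose, beside 8.52% and 6.21% of all genes tested. LINC00678 stood at 86.9, 65.9 and 74.2 RPKM in hESC, at 0.00, 0.01 and 0.02 in neuroectoderm and at 18.9, 48.3 and 27.4 in mesendoderm, and ESRG at 27.4, 24.7 and 26.3, then 0.75, 0.80 and 0.93, then 10.99, 18.9 and 13.4. Both follow the pattern of TDGF1, near zero in neuroectoderm and intermediate in mesendoderm, and the lineages differed by -4.91 and -3.05. The third, DANCR, fell from 131 ± 16.1 to 44.8 ± 11.3 and 72.5 ± 12.1. Its call was lost without hESC replicate 3 (adjusted p 0.0607) or mesendoderm replicate 1 (0.0621).

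MicroRNA genes are counted here through their hairpins, where 1 read is worth 0.13 to 0.40 RPKM, so that small counts decide the values. MicroRNAs pair with targets through the seed, bases 2 to 8 of the mature strand. The sequences below (RefSeq, GRCh38.p14, 5′ to 3′) are shown because the microRNAs of pluripotent cells group by seed; capitals mark it. Sequences were matched by gene symbol, for 17 microRNA genes.

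miR-373-3p: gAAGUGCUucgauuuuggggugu
miR-520c-3p: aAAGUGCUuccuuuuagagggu
miR-302a-3p: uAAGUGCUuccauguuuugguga
miR-519d-3p: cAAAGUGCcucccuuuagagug
miR-371a-3p: aAGUGCCGccaucuuuugagugu
miR-200b-3p: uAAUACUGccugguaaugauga
miR-429: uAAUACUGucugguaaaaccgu
miR-141-3p: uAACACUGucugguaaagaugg

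miR-373, miR-520c and miR-302a share the seed AAGUGCU, and miR-519d has AAAGUGC, which is offset by a base. MIR373, MIR520C, MIR519D and MIR371A lie on chromosome 19. Of the 17 microRNA genes tested between MIR512-1 and MIR373 there, 12 fell in both lineages and 0 rose, where 31 of 369 microRNA genes tested fell and 4 rose. MIR371A (2.46 RPKM in hESC, 0.07 and 0.507 at day 5) and MIR519D (4.47, 0.0933 and 0.19) passed the filter on the mean only through hESC. For such genes a fall was largely fixed by the filter. Mature strands here are alike and the handling of multiply mapped reads is not given, so the 12 are not separate results. MIR520C, named after its values were seen, had about 51.4, 126 and 26.2 reads in the hESC libraries, 9.0, 1.0 and 1.0 in neuroectoderm and 2.0, 1.0 and 2.0 in mesendoderm. MIR519D had about 19.1, 26.3 and 7.0 reads, then 1 read in neuroectoderm replicate 1 and 0 in the other 2, then 0, 0 and 2. The groups did not overlap, but at most 9 reads stand behind each day 5 value. On the RPKM scale the changes were -3.15 ± 0.55 and -3.40 ± 0.55 for MIR520C and -2.20 ± 0.36 and -2.11 ± 0.36 for MIR519D. MIR371A (-1.67 ± 0.27 and -1.24 ± 0.27) and MIR373 (-1.97 ± 0.32 and -1.33 ± 0.32) fell too, and the call of MIR373 was lost at a pseudocount of 0.1 (adjusted p 0.0824).

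The abundant MIR302 genes of the same seed were not called. MIR302D stood at 1355, 2209 and 898 RPKM in hESC, at 2058, 93.5 and 330.1 in neuroectoderm and at 122, 149 and 155 in mesendoderm. Neuroectoderm replicate 1, one of the libraries that stood apart, lay at the hESC level and the other 5 day 5 libraries lay below it. The change was -1.80 ± 0.92 in neuroectoderm (adjusted p 0.15) and -3.29 ± 0.92 in mesendoderm (0.023). Over the list of stem cell microRNA genes 3 of 17 fell with all libraries, beside 8.52% of all genes tested. The falls numbered 15 without neuroectoderm replicate 1 and 14 of 17 without the 3 libraries that stood apart, and the median change with all libraries was -1.66. The part of that library's quality in these counts was not tested.

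The epithelial microRNAs miR-200b and miR-429 share the seed AAUACUG, and miR-141 has AACACUG. MIR200B fell from 2.85, 4.13 and 2.43 RPKM to 1.03, 0.15 and 0.25 in neuroectoderm and 0.22, 0.00 and 0.26 in mesendoderm. MIR141 fell from 2.07, 1.60 and 1.77 to 0.25, 0.00 and 0.00 and to 0.45, 0.57 and 0.26. No group overlapped with hESC in either, at about 7 to 18.2 reads per hESC library and at most 4 per day 5 library. These and MIR429 were the 3 of 18 tested let-7 and differentiation microRNA genes to fall and 0 rose, beside 8.52% and 6.21% of all genes tested. The falls numbered 9 without neuroectoderm replicate 1. MIR429 (-1.07 ± 0.24 and -1.02 ± 0.24) lost its call without the 3 libraries that stood apart (adjusted p 0.0612). MIR200B, MIR141 and MIR429 (1.46 RPKM in hESC, 0.153 and 0.217 at day 5) passed the filter on the mean only through hESC. Their falls were therefore largely fixed by the filter.

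The largest shared rise was that of WLS, the transporter that carries WNT proteins to the cell surface. It stood at 1.06, 1.36 and 1.01 RPKM in hESC, at 136, 236 and 224 in neuroectoderm and at 206, 155 and 194 in mesendoderm. The day 5 libraries of the 2 lineages overlapped with each other and lay far above all hESC libraries. The change was 6.5 ± 0.22 and 6.43 ± 0.22 (adjusted p 1.3e-07 and 1.8e-07), and the lineages differed by 0.07 with a 95% interval of -0.42 to 0.57. MIR1262, a microRNA gene that lies inside WLS, was named after its values were seen. It was listed at 0 in the 3 hESC libraries and had about 3.0, 5.1 and 7.1 reads in neuroectoderm and 4.0, 1.0 and 3.0 in mesendoderm. It passed the filter on the mean only through day 5, so that a rise was largely fixed by the filter. Its shared call was lost in 6 of the settings in which it was tested, with adjusted p of 0.0614 to 0.0869: without hESC replicate 1 (0.065), 2 (0.0614) or 3 (0.0661), without mesendoderm replicate 1 (0.0861) or 3 (0.0869), and without the 3 libraries that stood apart (0.0802).

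RHOU, a small GTPase that WNT signals can induce, rose to the same level in both lineages, from 1.02, 1.41 and 1.14 RPKM to 19.7, 14.4 and 14.8 in neuroectoderm and 18.4, 13.9 and 15.2 in mesendoderm. The 95% interval of its lineage difference was -0.31 to 0.37. FST, the activin-binding protein follistatin, rose from 4.23, 3.59 and 4.21 to 30.3, 44.3 and 47.5 and to 28.9, 43.3 and 36.7, with an interval of -0.29 to 0.60. MEIS1, a homeobox factor, rose from 0.0933 ± 0.0351 to 6.24 ± 1.70 and 7.38 ± 2.06. In these 3 genes the lineages overlapped and neither was called higher.

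Of the other named genes with the largest rise, some went further in 1 lineage. PRTG, an immunoglobulin-family receptor called protogenin, reached 242, 179 and 199.5 RPKM in neuroectoderm and 74.9, 34.9 and 51.0 in mesendoderm from 1.83, 2.79 and 2.09 in hESC. COLEC12, a scavenger receptor, and ROR2, a receptor for WNT5-type ligands, were also higher in neuroectoderm than in mesendoderm, by 1.58 and 1.52. ANXA1, a membrane-binding annexin, reached 5.53, 7.39 and 6.97 in neuroectoderm and 37.6, 22.6 and 27.0 in mesendoderm from 0.36, 0.20 and 0.27. FLNC, an actin cross-linker, likewise went further in mesendoderm (neuroectoderm minus mesendoderm -1.57). CDH11, a cadherin of mesenchymal cells, rose by 2.91 ± 0.44 and 3.35 ± 0.44, with mesendoderm values as far apart as 54.8, 11.8 and 35.8. The call of each of the 15 genes in the plot of the largest rises held in all 19 alternative settings.

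**Figure D3:**
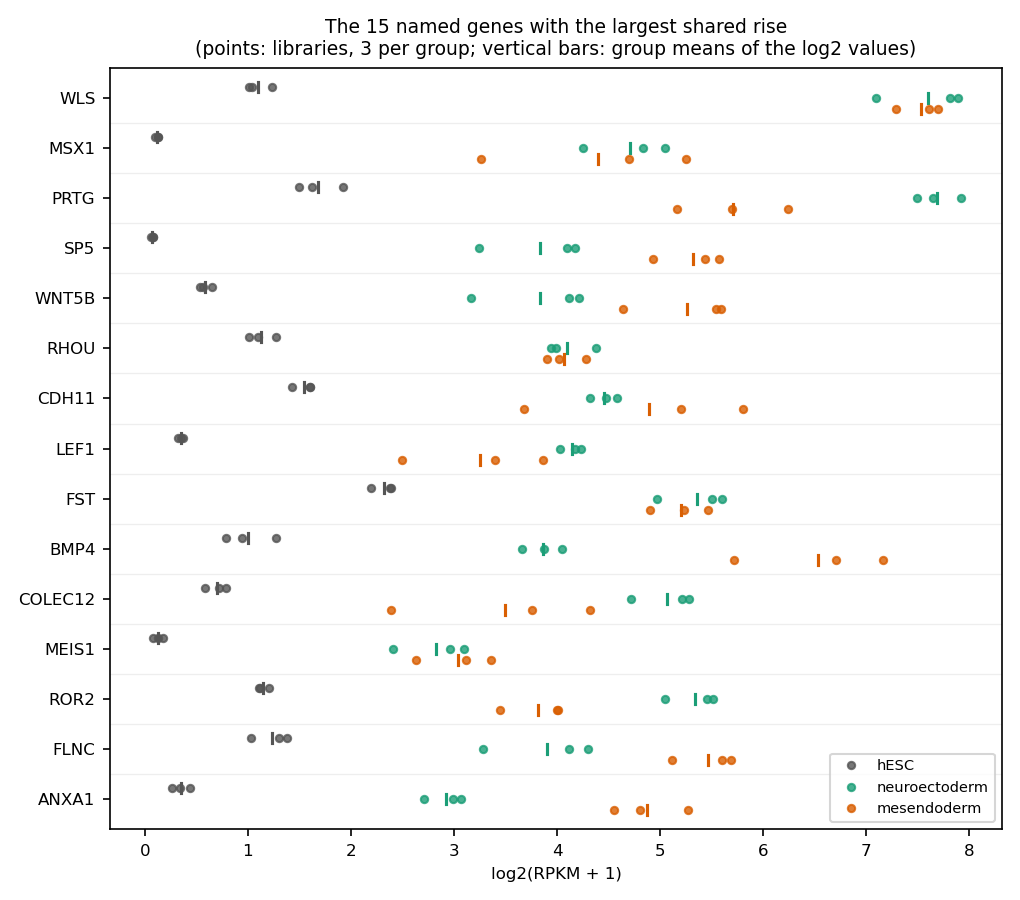
The 15 named genes with the largest shared rise, 1 row per gene. Points are libraries (3 per group) in log2(RPKM + 1) and the short bars are group means. All 6 day 5 points lie to the right of the 3 hESC points in every row; the lineages overlap in WLS, RHOU and FST and are apart in PRTG, BMP4 and ANXA1.

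**Figure D4:**
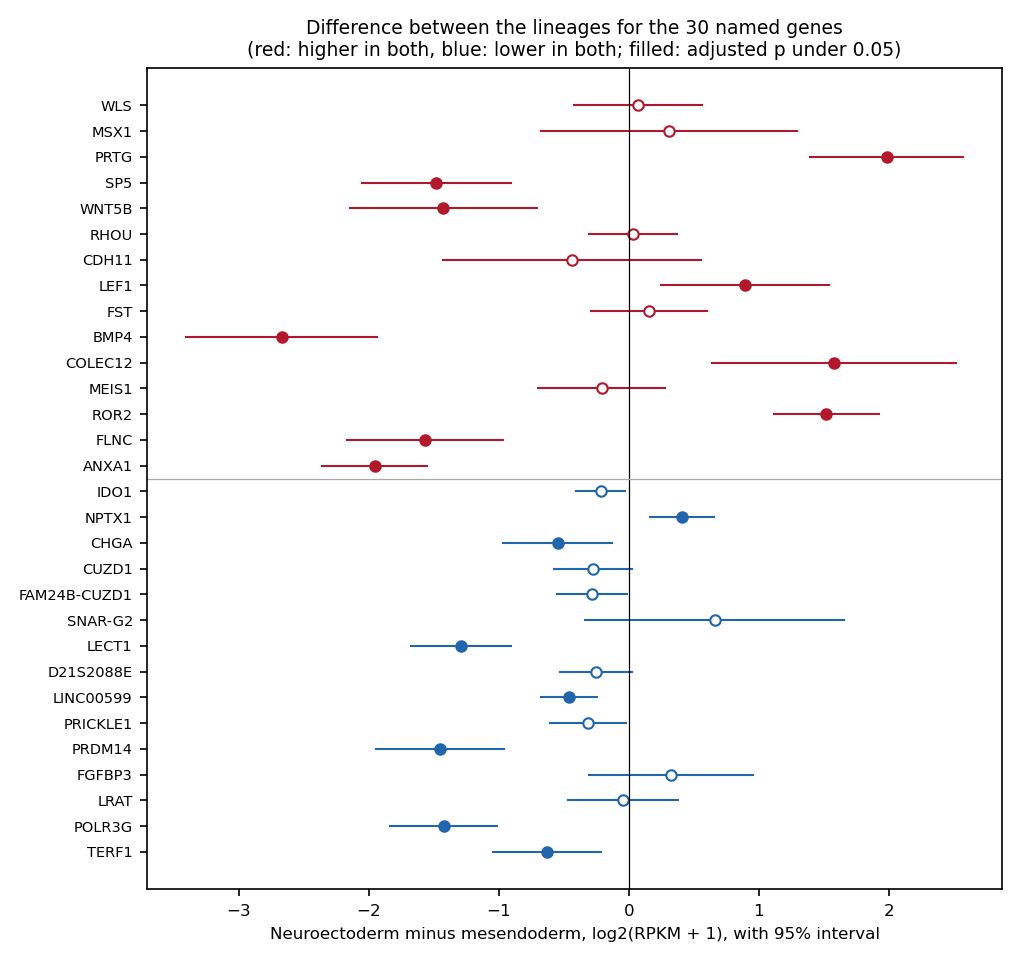
Neuroectoderm minus mesendoderm in log2(RPKM + 1) for the same 30 genes, with 95% intervals; red genes rose in both lineages, blue genes fell in both, and filled points mark an adjusted p under 0.05. Filled points number 9 of 15 among the rises and 7 of 15 among the falls.

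Of 21 tested genes that WNT signals are known to switch on, 11 rose in both lineages and 1 fell, beside 6.21% and 8.52% of all genes tested. Among the 11, the shared call was lost in 15 alternative settings for ZNRF3, in 10 for AXIN2 and in 4 for NOTUM. The median change over the 21 was 1.78, with 0.67 in neuroectoderm and 1.90 in mesendoderm. The rises numbered 11 without the 3 libraries that stood apart and 9 after rescaling. With 1 library left out they ranged from 8 to 12. The single fall was NKD2, whose call was lost without hESC replicate 1, mesendoderm replicate 1 or mesendoderm replicate 3 (adjusted p 0.0545, 0.0523 and 0.0543). SP5, a zinc finger factor, stood at 0.06, 0.06 and 0.04 RPKM in hESC, at 8.44, 17.0 and 16.1 in neuroectoderm and at 29.6, 46.5 and 42.4 in mesendoderm. LEF1, the nuclear partner of beta-catenin, stood at 0.28, 0.29 and 0.25, then 15.4, 17.1 and 17.8, then 13.6, 4.65 and 9.55. Both were low in every hESC library and higher in all 6 day 5 libraries, SP5 further in mesendoderm (-1.48, 95% interval -2.05 to -0.91) and LEF1 further in neuroectoderm (0.89, 0.25 to 1.54).

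Feedback inhibitors of WNT signalling were among the targets that rose. DKK1, which blocks the co-receptor, went from 0.17, 0.06 and 0.02 RPKM to 3.84, 3.27 and 3.78 in neuroectoderm and 5.29, 5.03 and 6.73 in mesendoderm. NKD1, which binds Dishevelled, changed by 1.66 ± 0.20 and 1.60 ± 0.20, and APCDD1, a membrane inhibitor, by 3.80 ± 0.23 and 1.06 ± 0.23; both were named after their values were seen. AXIN2, part of the complex that degrades beta-catenin and also named after its values were seen, went from 8.19, 7.10 and 8.18 to 47.3, 87.4 and 85.7 in neuroectoderm but only to 12.9, 12.6 and 12.4 in mesendoderm. Its change in mesendoderm was 0.63 ± 0.21 (adjusted p 0.048), and the shared call was lost in 10 of the 19 settings, among them the fits without each of the hESC and each of the mesendoderm libraries (adjusted p of the 10 settings 0.0514 to 0.131): 0.0945, 0.131 and 0.0983 without hESC replicate 1, 2 or 3, and 0.116, 0.106 and 0.113 without mesendoderm replicate 1, 2 or 3.

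On the side of ligands and secretion, 8 of 23 tested genes rose in both lineages and 2 fell, with a median of 1.63, beside 6.21% and 8.52% of all genes tested. With 1 library left out the rises of this list ranged from 6 to 9. WNT5B went from 0.45, 0.57 and 0.48 RPKM to 7.97, 17.5 and 16.4 in neuroectoderm and 47.3, 24.0 and 45.5 in mesendoderm. RSPO3, an R-spondin that raises receptor levels, went from 0.04, 0.10 and 0.04 to 2.57, 3.03 and 3.68 and to 3.75, 1.29 and 3.01. WNT5B was further up in mesendoderm (-1.43, 95% interval -2.15 to -0.71), whereas for RSPO3 the lineages overlapped (0.21, -0.33 to 0.75). WNT3 and WNT4, named after their values were seen, both rose, WNT3 more in mesendoderm (0.96 ± 0.13 and 3.78 ± 0.13) and WNT4 more in neuroectoderm (2.39 ± 0.22 and 1.04 ± 0.22). SFRP1, a secreted WNT-binding antagonist named likewise, moved the other way, by -1.35 ± 0.16 and -3.98 ± 0.16. The second fall, SFRP2, was lost without hESC replicate 1 or hESC replicate 3 (adjusted p 0.0512 and 0.0558).

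Promoters of 3 of these genes are shown. SP5 and DKK1 are the only 2 of 7 WNT targets that rose to hold a match to the motifs below, so they do not stand for the others. WLS had the largest shared rise. Each run is the 250 bases upstream of the RefSeq start on GRCh38.p14, read 5′ to 3′ on the gene's strand, at chr2:170715087-170715336 for SP5 (plus strand), chr10:52314031-52314280 for DKK1 (plus) and chr1:68232524-68232773 for WLS (minus). Capitals mark matches to the TCF/LEF motifs CTTTGAT and CTTTGAA on either strand.

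SP5: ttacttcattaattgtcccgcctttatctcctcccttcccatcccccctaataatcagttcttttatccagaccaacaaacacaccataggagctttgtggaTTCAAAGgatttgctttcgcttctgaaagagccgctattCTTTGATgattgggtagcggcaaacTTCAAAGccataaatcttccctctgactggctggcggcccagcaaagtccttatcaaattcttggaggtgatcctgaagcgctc
DKK1: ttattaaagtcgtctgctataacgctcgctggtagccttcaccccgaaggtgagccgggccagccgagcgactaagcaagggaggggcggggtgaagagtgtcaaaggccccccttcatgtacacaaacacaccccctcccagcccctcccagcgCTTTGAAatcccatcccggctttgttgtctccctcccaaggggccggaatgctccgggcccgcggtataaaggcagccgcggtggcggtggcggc
WLS: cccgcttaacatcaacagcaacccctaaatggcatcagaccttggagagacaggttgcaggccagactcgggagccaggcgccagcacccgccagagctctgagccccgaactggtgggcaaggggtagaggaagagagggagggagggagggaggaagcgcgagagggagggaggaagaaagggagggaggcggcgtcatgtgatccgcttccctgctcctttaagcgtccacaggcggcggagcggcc

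SP5 held 3 matches, DKK1 held 1 and WLS held 0. The WNT targets LEF1, MSX1, MSX2, APCDD1 and TNFRSF19 rose too and held 0. Of the 7 WNT target genes that rose and had a promoter in the table, 2 held a match (28.6%), beside 30 of 685 shared genes that rose (4.38%), 28 of 929 that fell (3.01%), 368 of 10882 genes tested (3.38%) and 1646 of all 27305 promoters (6.03%). The octamer ATGCAAAT, the letters POU factors are known to bind, was in 20 of 929 promoters of genes that fell (2.15%), in 6 of 685 of genes that rose (0.876%) and in 152 of 10882 of genes tested (1.40%). These are matches of letters in a short window and were not tested.

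Of 28 tested genes of the BMP pathway 15 rose in both lineages and 0 fell, beside 6.21% and 8.52% of all genes tested. NOGGIN was added in 1 lineage and BMP4 in the other. The median change was 1.39, with 0.54 in neuroectoderm and 1.84 in mesendoderm. The rises numbered 16 without the 3 libraries that stood apart and 12 after rescaling. With 1 library left out they ranged from 11 to 16. The ligand gene BMP4 went from 0.73, 1.42 and 0.92 RPKM in hESC to 11.7, 15.6 and 13.7 in neuroectoderm and 143, 51.5 and 104 in mesendoderm. The ligand gene BMP2 went from 2.28, 1.88 and 2.16 to 41.7, 54.0 and 49.3 and to 12.6, 5.56 and 12.0. The groups did not overlap in either gene, and their order was opposite: BMP4 was higher in mesendoderm (neuroectoderm minus mesendoderm -2.67, 95% interval -3.40 to -1.93) and BMP2 in neuroectoderm (2.22, 1.64 to 2.80).

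The homeobox genes MSX1 and MSX2 are direct targets of BMP signals and also respond to WNT. MSX1 stood at 0.07, 0.09 and 0.09 RPKM in hESC, at 18.1, 27.4 and 32.1 in neuroectoderm and at 37.0, 8.62 and 24.9 in mesendoderm. MSX2 stood at 0.10, 0.13 and 0.01, then 1.52, 4.63 and 5.16, then 33.0, 35.0 and 40.9. For MSX1 the lineages overlapped (0.31, 95% interval -0.68 to 1.30), and for MSX2 every mesendoderm library was above every neuroectoderm library (-3.07, -3.73 to -2.40). The antagonist gene NOG (1.59 ± 0.28 and 1.92 ± 0.28) and the target ID2 (1.39 ± 0.25 and 2.77 ± 0.25), both named after their values were seen, rose too. The files measure RNA, so the NOGGIN and BMP4 proteins added to the medium are not counted here.

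Genes of Nodal and activin signalling did not move together, with 2 of 20 higher, 2 lower and a median of 0.04. These shares lie near the 6.21% and 8.52% of all genes tested. The co-receptor TDGF1 fell as above, while SMAD3, a transducer of the pathway, rose from 2.51 ± 0.290 RPKM to 9.78 ± 0.165 in neuroectoderm and 5.55 ± 1.15 in mesendoderm. The second fall was LEFTY1, a Nodal antagonist at 1.86 ± 0.563 RPKM in hESC, whose call was lost without hESC replicate 1 (adjusted p 0.0743), hESC replicate 3 (0.0699), mesendoderm replicate 1 (0.0747) or mesendoderm replicate 3 (0.0806). Without hESC replicate 2 or mesendoderm replicate 2 the falls of the list numbered 3, and so did its rises without neuroectoderm replicate 1. In the FGF and ERK list 5 of 29 fell and 2 rose, beside 8.52% and 6.21% of all genes tested. DUSP6, a phosphatase that ERK signals induce, went from 37.6, 40.4 and 43.5 RPKM to 6.46, 7.14 and 8.46 in neuroectoderm and 28.3, 18.1 and 24.7 in mesendoderm, and the ETS factor ETV1 from 10.9 ± 0.610 to 5.78 ± 0.595 and 3.93 ± 0.289. Neither gene overlapped between hESC and day 5. The falls of this list numbered 7 without neuroectoderm replicate 1 and 4 without mesendoderm replicate 3, and its rises 1 without mesendoderm replicate 3 or neuroectoderm replicate 3 and 3 without neuroectoderm replicate 1.

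Of 28 mesenchymal genes 9 rose and 0 fell, beside 6.21% and 8.52% of all genes tested. Their median of 1.16 was lower in neuroectoderm (0.50) than in mesendoderm (1.595). After rescaling 9 rose and 2 fell, and 1 fell without hESC replicate 2 or neuroectoderm replicate 1. With 1 library left out the rises ranged from 8 to 11. TAGLN, the actin-binding transgelin, went from 57.4, 56.3 and 69.9 RPKM to 319, 339.8 and 305 in neuroectoderm and 237, 209 and 210.4 in mesendoderm. ACTA2, smooth muscle actin, went from 0.35, 0.40 and 0.30 to 37.0, 78.1 and 67.8 and to 4.58, 3.60 and 4.14. All day 5 libraries were above hESC in both, and ACTA2 was higher in neuroectoderm by 3.54 (95% interval 3.0 to 4.08). The matrix protein TNC was the reverse, at 5.85 ± 0.871 in neuroectoderm and 24.9 ± 9.18 in mesendoderm from 0.807 ± 0.108. CDH2, the N-cadherin of neural and mesodermal cells named after its values were seen, changed by 3.65 ± 0.15 and 0.71 ± 0.15. Epithelial junction genes showed 3 of 39 lower and 0 higher, a share no larger than that of all genes tested. The falls numbered 1 without hESC replicate 3 or mesendoderm replicate 1, 2 without mesendoderm replicate 2 or neuroectoderm replicate 3, and 0 without mesendoderm replicate 3, and there was 1 rise without hESC replicate 2 or neuroectoderm replicate 1. Their medians pointed apart, -1.38 in neuroectoderm and 0.49 in mesendoderm. ESRP1, a splicing regulator of epithelial cells, was near zero in neuroectoderm (0.17, 0.13 and 0.24) and at 30.3, 38.4 and 31.2 in mesendoderm, from 42.2, 49.7 and 46.3 in hESC. Its call in mesendoderm (-0.46 ± 0.12) was lost without hESC replicate 3 (adjusted p 0.0501), mesendoderm replicate 1 (0.0567) or mesendoderm replicate 3 (0.0643), and at a pseudocount of 0.1 (0.052).

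Several receptor, adhesion and channel genes of the stem cells fell. In a list of receptor kinases and adhesion genes 6 of 26 fell and 1 rose, and in a list of voltage-gated channels and transporters 5 of 17 fell and 0 rose, with medians of -0.40 and -0.62. Both counts stand beside 8.52% (lower) and 6.21% (higher) of all genes tested. ERBB2, a receptor tyrosine kinase, went from 145, 128 and 162 RPKM to 35.3, 56.0 and 48.3 in neuroectoderm and 30.3, 34.5 and 32.6 in mesendoderm. LCK, a Src-family kinase best known in T cells, went from 35.2, 24.5 and 33.0 to 0.11, 0.10 and 0.06 and to 2.93, 6.65 and 3.65. Both lay below hESC in all 6 day 5 libraries, and LCK was lower in neuroectoderm (neuroectoderm minus mesendoderm -2.25, 95% interval -2.78 to -1.72). CD24, a surface glycoprotein, fell from 340.0 ± 31.0 to 50.9 ± 5.85 and 102 ± 1.26. The potassium channel genes KCNS3 (-1.49 ± 0.09 and -0.68 ± 0.09) and KCNN2 (-0.91 ± 0.21 and -1.86 ± 0.21) fell in opposite order of depth. The single rise was LAMB1, a laminin chain (1.41 ± 0.14 and 1.99 ± 0.14). Without neuroectoderm replicate 1 or mesendoderm replicate 2 the rises of this list numbered 2.

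Among IGF-binding proteins and IGF genes 4 of 12 rose and 2 fell, beside 6.21% and 8.52% of all genes tested. The ligand gene IGF2 rose alike in both lineages, by 1.16 ± 0.26 and 1.08 ± 0.26 (difference 0.08, 95% interval -0.52 to 0.68), from 0.137 ± 0.0404 RPKM in hESC, while IGFBP5 and IGFBP7 differed widely in size. IGFBP5 went from 0.55, 0.85 and 0.61 RPKM to 176, 184 and 176 in neuroectoderm and to 6.04, 3.56 and 3.91 in mesendoderm. IGFBP7 went from 0.15, 0.28 and 0.07 to 0.54, 0.97 and 0.77 in neuroectoderm and 40.01, 28.8 and 33.8 in mesendoderm. IGFBP5 and IGFBP7 were each high in 1 lineage and lay above hESC in the other too. IGFBP6 fell, with changes of -1.86 and -1.25.

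Single chromatin genes moved in either direction. DNMT3B, the de novo DNA methyltransferase of pluripotent cells, went from 204, 189 and 217 RPKM to 16.5, 25.6 and 25.3 in neuroectoderm and 55.7, 80.8 and 64.5 in mesendoderm. The Polycomb subunit PHC1 went from 76.8, 80.8 and 91.0 to 8.69, 9.03 and 8.02 and to 24.5, 28.6 and 25.2, while its paralogue PHC2 rose from 7.45, 7.07 and 8.47 to 52.0, 69.6 and 63.1 and to 18.3, 12.3 and 17.1. The groups did not overlap in these 3 genes, and the change was deeper or higher in neuroectoderm each time. The methylcytosine oxidase TET2 (1.37 ± 0.11 and 0.91 ± 0.11), the demethylase KDM6B (1.82 ± 0.20 and 1.20 ± 0.20) and the methyltransferase SMYD2 (1.32 ± 0.11 and 2.45 ± 0.11) rose. Over the lists, 5 of 32 histone modifying and Polycomb genes rose and 3 fell, and 1 of 12 DNA methylation genes rose and 1 fell, shares that apart from the histone and Polycomb rises lie near the 6.21% and 8.52% of all genes tested, with DNA methylation falls numbering 2 without neuroectoderm replicate 1 or 2.

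Of 30 tested regulators of the exit from the stem cell state 5 fell and 1 rose, beside 8.52% and 6.21% of all genes tested, and the median was 0.08. The list does not sort its members by whether they act for or against the exit. TCF7L1, a repressor of the pluripotency network, went from 30.9, 22.7 and 31.5 RPKM to 5.30, 7.01 and 6.98 in neuroectoderm and 4.66, 6.23 and 5.24 in mesendoderm, and the lineages overlapped (0.22, 95% interval -0.15 to 0.59). TFE3 (-1.45 ± 0.11 and -1.01 ± 0.11) and RRAGD (-1.05 ± 0.10 and -1.21 ± 0.10), which belong to the lysosomal nutrient-sensing branch, also fell. The rises of this list numbered 3 without neuroectoderm replicate 1 and 0 without hESC replicate 1 or 3, mesendoderm replicate 2 or 3 or neuroectoderm replicate 3.

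The series' title names the primary cilium and NRF2, and both were counted as lists. Of 49 cilium assembly genes 5 rose and 0 fell, with a median of 0.28, beside 6.21% (higher) and 8.52% (lower) of all genes tested. That count moved with single libraries, from 1 without hESC replicate 1 or mesendoderm replicate 3, and 2 without hESC replicate 3 or mesendoderm replicate 1, to 9 without neuroectoderm replicate 1, and it was 1 after rescaling. KIFAP3, which links the kinesin motor of intraflagellar transport to its cargo, rose from 0.790 ± 0.204 RPKM to 2.40 ± 0.624 and 2.23 ± 0.631 and kept its call in the settings in which it was tested, which leave out the filter at 2 RPKM. Of 28 NRF2 targets 0 rose and 2 fell, a share of falls no larger than that of all genes tested. They were HMOX1, heme oxygenase (9.74, 8.83 and 11.5 RPKM to 2.16, 3.27 and 3.94 in neuroectoderm and 4.30, 5.20 and 4.66 in mesendoderm), and GCLC, of glutathione synthesis (-0.70 ± 0.12 and -0.50 ± 0.12). The falls numbered 3 without hESC replicate 2 and 7 without the 3 libraries that stood apart, and there was 1 rise without mesendoderm replicate 2.

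Cell cycle, metabolism, cell death and RNA-binding lists held shared genes in both directions or falls alone, to be read beside the 6.21% (higher) and 8.52% (lower) of all genes tested. Of 30 DNA replication and mitosis genes 4 fell and 1 rose. The checkpoint kinase BUB1 (59.2, 68.0 and 60.8 RPKM to 35.1, 29.1 and 28.97 and to 34.8, 33.2 and 29.9) and BUB1B (-0.45 ± 0.11 and -0.55 ± 0.11) kept their calls in all settings. The count of falls was 2 without any 1 of the libraries other than neuroectoderm replicate 1, and 6 without that library, and the rise was lost without hESC replicate 1 or 2 or any 1 mesendoderm library. Of 17 regulators of G1 2 rose and 2 fell, with 4 rises without neuroectoderm replicate 1, 0 or 1 without any other 1 library, and 0 after rescaling; falls numbered 0 without hESC replicate 3 or mesendoderm replicate 3 and 1 without any other 1 library but neuroectoderm replicate 1 or 3. Of 24 glycolysis genes 2 fell and 0 rose. One was the hexokinase gene HK2 (-2.15 ± 0.12 and -0.87 ± 0.12), and without neuroectoderm replicate 1 there were 2 rises and 3 falls, without mesendoderm replicate 3 a single fall. Of 20 genes of serine, glycine and threonine metabolism 3 fell and 1 rose, MAT1A of methionine metabolism falling by 0.99 and 1.10 on the log2 scale, with 5 falls without neuroectoderm replicate 1, 2 without hESC replicate 3 or mesendoderm replicate 3, and no rise without hESC replicate 1 or 2 or any 1 mesendoderm library. Of 23 apoptosis regulators 2 rose and 2 fell, with 1 rise without hESC replicate 1 or 3 or neuroectoderm replicate 3, and 0 falls without hESC replicate 1 or 3, 1 without hESC replicate 2 or mesendoderm replicate 1 or 3, and 3 without neuroectoderm replicate 2. BMF, which promotes apoptosis, rose from 7.99 ± 0.115 to 36.8 ± 6.31 and 16.8 ± 1.85. Of 25 splicing and RNA-binding genes 3 rose and 3 fell, with a single rise without any 1 hESC library, mesendoderm replicate 3 or neuroectoderm replicate 3, and 0 falls without hESC replicate 3. MBNL2, which promotes splicing patterns of differentiated cells, rose by 1.83 ± 0.15 and 1.53 ± 0.15.

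**Figure D5:**
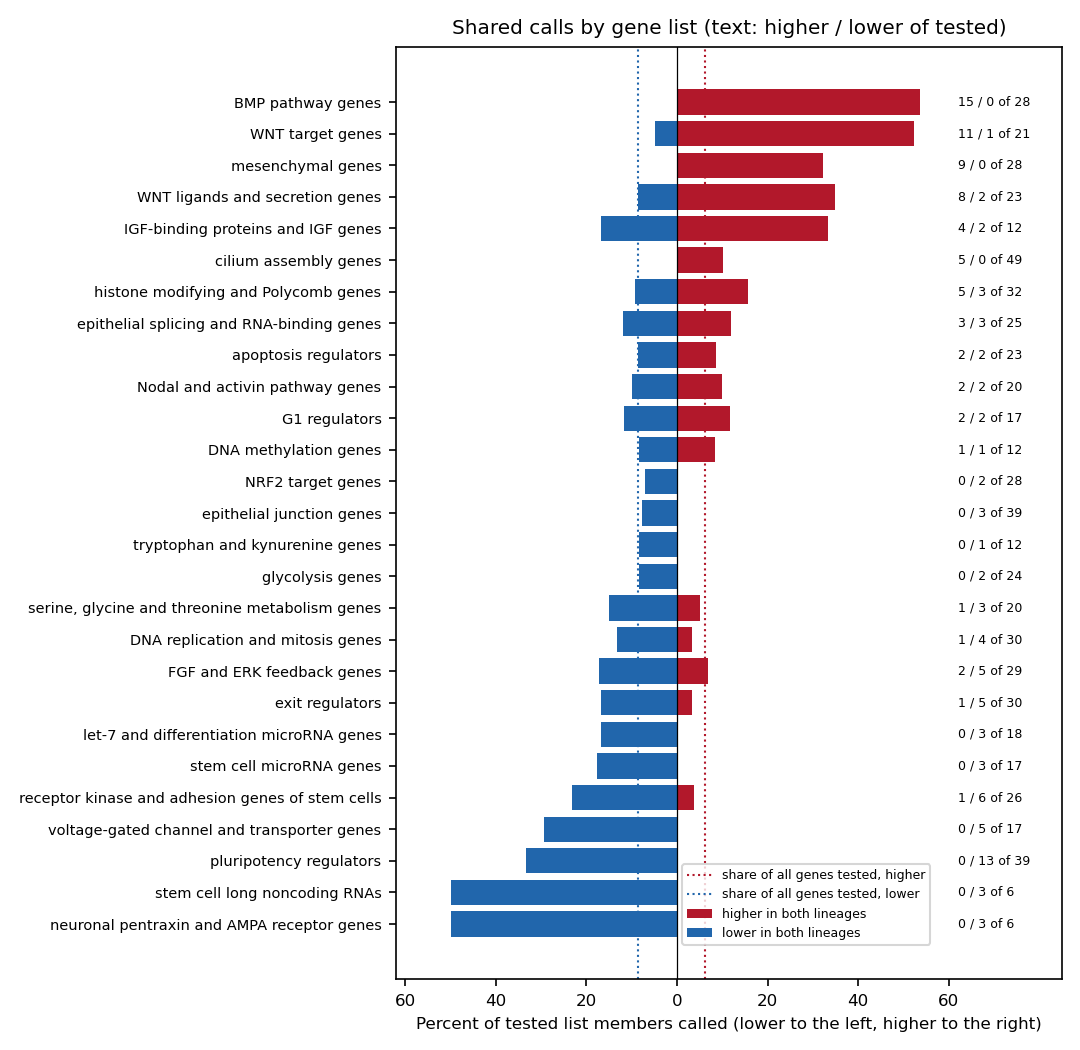
For each of the 27 gene lists, the percent of tested members called higher (right, red) and lower (left, blue) in both lineages, with the counts at the right edge; dotted lines mark the 6.21% and 8.52% of all genes tested. BMP pathway and WNT target genes have the longest red bars, and pluripotency regulators a long blue bar with 0 rises.

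Of the 119 named shared genes, 85 kept the call in every setting in which they were tested. The others lost it in at least 1 setting: without hESC replicate 3 or without mesendoderm replicate 3, 23 named genes each lost it (adjusted p 0.0501 to 0.149 and 0.0516 to 0.144), while without neuroectoderm replicate 1 a single gene did, MBNL3 (0.101).

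The labels were set beside markers. In the stem cell list 8 of 9 markers fell in both lineages, and its summed level was 772 to 868 RPKM in hESC, 304 to 328 in neuroectoderm and 335 to 410.4 in mesendoderm. The list holds IDO1, LCK and USP44, which are also described above for their falls. Its falls therefore describe these data and are not an independent check of the labels. LIN28A, the marker that did not fall in both, had a mean of 307 in hESC, 275 in neuroectoderm and 174 in mesendoderm and so made up most of what remained in neuroectoderm. Markers of neuroectoderm summed to 341 to 425 in neuroectoderm, 7.11 to 7.56 in mesendoderm and 35.0 to 41.5 in hESC. OTX2 was the largest part (mean 175.7 in neuroectoderm, 36.7 in hESC), and LHX2 and SIX3 stayed under 1 RPKM in every library. Markers of mesendoderm summed to 277 to 322 in mesendoderm, 4.78 to 5.70 in neuroectoderm and 22.6 to 25.1 in hESC. KDR made up most of the hESC sum (mean 22.2, against 83.4 in mesendoderm). Markers of other cells moved as well. The amnion list (8 markers) summed to 177 to 315 in mesendoderm, 3.74 to 5.90 in neuroectoderm and 4.64 to 5.40 in hESC, most of it IGFBP3. From hESC to mesendoderm the means of GABRP (0.777 to 34.1), TFAP2A (0.107 to 14.7), ISL1 (0.0633 to 11.9), WNT6 (0.0533 to 10.4) and VTCN1 (0.157 to 7.25) rose too. TFAP2B and BNC1 had means under 1 RPKM in mesendoderm. The trophoblast list (9 markers) summed to 30.8 to 38.6 in mesendoderm, 0.52 to 1.10 in neuroectoderm and 5.23 to 7.41 in hESC. Most of it in mesendoderm and hESC was KRT7, and CGA was under 1 RPKM in every group. The fibroblast list summed to 178 to 195 in mesendoderm, 32.2 to 60.5 in neuroectoderm and 79.5 to 128.5 in hESC. The neuron list summed to 99.9 to 109.6 in neuroectoderm, 20.4 to 26.2 in mesendoderm and 34.7 to 62.3 in hESC. MAP2 carried the neuroectoderm sum (mean 85.2, against 2.61 in hESC), whereas 4 of the 8 tested neuron markers fell in both lineages, among them TUBB3 from 35.6 to 11.5 and 16.7. Endothelial and blood markers summed to at most 12.3 in any library. None of the marker lists of amnion, trophoblast, fibroblasts or neurons was high in both lineages, and the part of such cells in the shared changes was not tested.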

How the data were processed

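Total RNA of H9 cells was sequenced with an Ion total RNA library after ribosomal depletion, per the labels' protocols. TopHat, TopHat2 2.0.13 and Bowtie2 and the build hg19 are named in the submitters' processing notes; for the counting tool, strand use and multiply mapped reads the entry is: not given in the sources used here. The authors deposited RPKM for 38759 RefSeq transcripts, rounded to 2 decimals. Of 21417 gene symbols, 7922 had several transcripts, and the row with the highest mean stood for the gene. The 14473 genes averaging 0.5 RPKM or more were fitted on log2(RPKM + 1) with limma 3.58.1 in R 4.3.3 (trend, all 9 libraries, Benjamini-Hochberg over all genes), and the code was tested on simulated data. Adjusted p-values are from that fit, or from the same limma fit under the alternative named beside them. Library denominators were inferred from the spacing of low values, of which 93.7% to 97.6% came out whole within 0.1 read. Floors of reads cover counting error only. The intervals of the lineage difference rest on the standard errors of the limma fit and so reflect only the spread among these libraries. POU5F1 is not analysed here.

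The members and gene lists were chosen with earlier results of these data known. Named genes were, per direction, the 15 shared genes with the largest smaller lineage change, with groups not overlapping and the higher side at 5 RPKM or more, leaving out LOC symbols and symbols with the prefixes of microRNA, snoRNA and similar genes (SNAR-G2 carries none of these); WLS, IDO1 and NPTX1; and up to 4 shared genes of each list. Other genes are named as chosen after their values were seen. The 27 lists are those counted in the plot of lists. Alternatives were other pseudocounts, filters, scalings and transcript sums, no trend, a replicate block, leaving out each library, and leaving out the 3 libraries that stood apart.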

Additional observations from a re-analysis of the deposited data

Results flagged for a closer look

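The named shared genes below differed between the lineages by the test of the difference itself (limma, adjusted p under 0.05). Each value is neuroectoderm minus mesendoderm in log2(RPKM + 1), so that a negative value means a lower level in neuroectoderm. Over all genes tested, 48.1% differed in this comparison.

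Among the genes with the largest rises, PRTG (1.98), COLEC12 (1.58), ROR2 (1.52) and LEF1 (0.89) were higher in neuroectoderm. BMP4 (-2.67), ANXA1 (-1.95), FLNC (-1.57), SP5 (-1.48) and WNT5B (-1.43) were higher in mesendoderm. Among those with the deepest falls, NPTX1 (0.41) was lower in mesendoderm. PRDM14 (-1.45), POLR3G (-1.42), LECT1 (-1.29), TERF1 (-0.63), CHGA (-0.55) and LINC00599 (-0.46) were lower in neuroectoderm.

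Of the stem cell genes, LINC00678 (-4.91), TDGF1 (-4.46), NANOG (-3.47), ESRG (-3.05), DPPA4 (-0.96), DANCR (-0.70), LEFTY1 (-0.63), TFE3 (-0.45) and MIR141 (-0.40) were lower in neuroectoderm and USP44 (1.36) in mesendoderm. Of epithelial, RNA-binding and mesenchymal genes, ESRP1 (-4.86), MAL2 (-2.50), TNC (-1.86) and MBNL3 (-1.36) were lower in neuroectoderm, and ACTA2 (3.54), RBM24 (1.23) and TAGLN (0.55) were higher there.

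Of signalling genes, MSX2 (-3.07), DUSP6 (-1.55), NOTUM (-1.35), IGFBP7 (-4.32), IGFBP6 (-0.61) and DKK1 (-0.52) were lower in neuroectoderm. IGFBP5 (5.06), AXIN2 (2.39), BMP2 (2.22), SMAD3 (0.73), ETV1 (0.46) and GRIA4 (0.44) were higher there. Of chromatin genes, DNMT3B (-1.54), PHC1 (-1.50) and SMYD2 (-1.13) were lower in neuroectoderm, and PHC2 (1.90), KDM6B (0.62) and TET2 (0.46) higher.

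Of metabolic, cell cycle, cilium and apoptosis genes, PMAIP1 (-3.79), CDKN1A (-2.41), HK2 (-1.28), SLC16A1 (-0.94), GCSH (-0.73) and HMOX1 (-0.49) were lower in neuroectoderm, and BMF (1.08), BBS12 (0.62), MAT2A (0.52) and CASP9 (0.43) higher. Of channels, receptors and adhesion genes, LCK (-2.25), CD24 (-0.99), KCNS3 (-0.81) and LAMB1 (-0.58) were lower in neuroectoderm and KCNN2 (0.95) was higher.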

How the results depend on the processing

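Across 19 alternative settings, 0 of 2315 gene and setting pairs turned direction, 2136 stayed on their side of the threshold and 169 lost the call. Genes higher in both lineages numbered 488 after rescaling without small RNA, 1404 without neuroectoderm replicate 1, 1462 without the 3 libraries that stood apart, 202 at a change of at least 2-fold in each lineage and 479 at an adjusted p under 0.01. Genes lower in both numbered 279 and 740 under the last 2 rules. Genes higher in neuroectoderm numbered 2061 after rescaling. With 1 library left out, shared rises ranged from 602 to 1404 and falls from 872 to 1591. Rises in neuroectoderm ranged from 2427 to 4019 and falls from 2503 to 3382, rises in mesendoderm from 1781 to 3264 and falls from 1820 to 3432, and genes higher in neuroectoderm than in mesendoderm from 2788 to 4066 and lower from 2737 to 3499. Of the 3185 genes called without the 3 libraries, 1990 were also called with all. Same-numbered deviations correlated at -0.738 to 0.401 and 1 of 9 libraries correlated best with its own number. These correlations cannot decide whether the replicate numbers pair the libraries, because the deviations include those of the 3 libraries that stood apart. With the replicate block 706 genes rose and 1029 fell, and 10 named genes lost the call. The cause of these shifts was not tested. Genes below about 0.0809 RPKM on 1 kb rest on fewer than 3 reads in the shallowest library.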

Other observations

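Genes in this paragraph were chosen after their values were seen, and each kept its shared call in every setting in which it was tested. They were not chosen as a list and no group was tested. SYN1 and SYP are also 2 of the 4 markers of the neuron list that fell in both lineages. MAP2 of the same list rose in neuroectoderm (mean 2.61 to 85.2 RPKM). UNC13A, which primes synaptic vesicles, changed by -3.19 ± 0.15 (SE) in neuroectoderm and -2.05 ± 0.15 in mesendoderm, and the vesicle protein SYP by -1.74 ± 0.13 and -2.14 ± 0.13. SYN1 changed by -1.30 ± 0.13 and -1.16 ± 0.13, and SNCB by -2.40 ± 0.20 and -1.97 ± 0.20. HES3, a relative of the Notch-responsive repressors, fell from 28.0 ± 6.22 RPKM (SD, n = 3) to 3.66 ± 0.633 and 0.11 ± 0.0964. Among single genes that rose, AHNAK rose by 2.54 ± 0.22 and 5.02 ± 0.22, the GTPase RHOB by 2.53 ± 0.26 and 3.73 ± 0.26, AMOTL2 by 2.28 ± 0.14 and 2.36 ± 0.14, and the integrin ITGA5 by 2.13 ± 0.33 and 2.44 ± 0.33. The nuclear long noncoding RNA NEAT1 rose from 1.51 ± 0.222 RPKM to 8.29 ± 0.613 and 25.1 ± 4.73.

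Small RNA classes are given beside the 6.21% of all genes tested that rose and the 8.52% that fell. Of 123 box H/ACA snoRNA and scaRNA genes 17 rose (13.8%) and 2 fell (1.63%), and of 219 box C/D snoRNA genes 18 rose (8.22%) and 4 fell (1.83%), whereas of 369 microRNA genes 4 rose (1.08%) and 31 fell (8.40%), so that the microRNA falls and the box C/D rises lay near the share of all genes. Without neuroectoderm replicate 1 the microRNA falls numbered 109 of 347 (31.4%), the box C/D falls 16 of 219 (7.31%) and the H/ACA falls 7 of 123 (5.69%), beside 1591 of all 14427 genes. Small RNA took 52.5% to 72.9% of the RPKM sum of a library, the most in neuroectoderm replicate 1. The part of that library in these counts was not tested.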
